A study of Mus musculus with 6 samples.

Results

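The nuclear genes described here encode subunits of complexes III, IV and V of the mitochondrial respiratory chain. They are the protein-coding genes of the deposited table whose symbols begin with Uqcr (complex III), with Cox4 to Cox8 (complex IV) or with Atp5 (complex V). The rule gave 43 of the 53465 genes in the table, 8 of complex III, 18 of complex IV and 17 of complex V, and used no measured value. RNA was sequenced from bone marrow cells in a sort gate for LT-HSCs, the haematopoietic stem cells with long-term repopulating ability, from carnosine-treated and from saline-treated wild-type mice, with 3 libraries in each group. Mice of both groups had received 5.0 Gy of total body irradiation before the treatment, so no library came from an unirradiated animal. Carnosine is a dipeptide of beta-alanine and histidine. The sort kept cells with surface Sca-1 and c-Kit and without lineage markers, CD34 or Flk2. The sources used here do not give the dose and timing of carnosine, the time of harvest or the age of the mice. Nor do they say whether each library stands for its own mice, so the p-values reflect library-to-library spread that may be only technical.

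Complex III passes electrons from ubiquinol to cytochrome c, complex IV passes them from cytochrome c to oxygen, and both pump protons out of the mitochondrial matrix. Complex V, the ATP synthase, lets protons flow back through a rotating ring of membrane subunits and uses that rotation to make ATP. A few central subunits of each complex are encoded by mitochondrial DNA, while the nuclear genes encode the other subunits, many of them very small proteins that stabilise, link or tune the complexes. Haematopoietic stem cells at rest are known for relying little on respiration and for raising it when they leave quiescence.

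Total counts were 12730837 to 13651553 in the carnosine libraries and 12602067 to 16866534 in the saline libraries. Pearson's r of log2 CPM over the tested genes (genes are no independent replicates) was 0.988 to 0.990 within groups and 0.959 to 0.962 between groups. CPM is a count scaled to library size, here after TMM scaling, which corrects for differences in composition. Of the gate's own transcripts, Kit was at 378 ± 4.11 CPM with carnosine and 329.6 ± 10.2 CPM with saline, and Ly6a, which encodes Sca-1, at 29.2 ± 8.79 and 30.2 ± 8.13 CPM (SD, n = 3 each). The gate excluded the proteins of Flt3 and Cd34, but their transcripts were at 179.9 ± 2.51 and 301.02 ± 4.70 CPM with carnosine and at 210.3 ± 8.64 and 328.5 ± 18.95 CPM with saline (SD, n = 3 each). LT-HSC is therefore used as the name of the gate.

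No subunit gene of complexes III, IV and V passed the test as higher with carnosine. As lower, 13 of the 39 tested passed (33.3%), all by modest amounts. Of all tested genes 19.6% were higher and 19.8% lower. The 13 subunit genes that fell encode mainly small subunits. Among them were Uqcrh of complex III, the supercomplex factor Cox7a2l and the membrane subunits Atp5l and Atp5k of the ATP synthase. Atp5g3, for the rotating ring of that enzyme, and Atp5e, for a part that turns with the ring, also fell. Other small subunits, such as Uqcr11, Uqcrb, Cox7a2 and Cox7c, did not pass the test. The levels of the 13, counted without near-identical copies, were lower by 8.25% (Cox4i1) to 31.9% (Atp5l). The large core, iron-sulfur and catalytic subunits Uqcrc1, Uqcrc2, Uqcrfs1, Atp5a1 and Atp5b did not pass the test in either direction. Atp5b came close, with carnosine libraries all below the saline libraries (edgeR adjusted p = 0.056). A gene is called when edgeR's quasi-likelihood test gives a Benjamini-Hochberg adjusted p under 0.05 over all 15533 genes tested.

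Of the 43 genes, 40 had counts and 39 had enough to be tested. None of the 39 was called higher and 13, or 33.3%, were called lower, against 19.6% of all tested genes called higher and 19.8% called lower. Limma-trend on log2(FPKM + 1) of the deposited FPKM values called 3387 genes higher and 2156 lower of 13348. That is a larger share of higher calls than the 3038 higher and 3077 lower of edgeR. Its median log2 fold change over those 13348 genes was 0.051. With edgeR the median log2 fold change of the 39 was -0.13, beside a median of -0.00005 over all tested genes. By sign alone, 33 were lower and 6 higher. The carnosine and saline libraries did not overlap for 16 of the 39 in the lower direction (41%) and for 3 in the higher direction (7.69%), against 26.1% and 26.2% of all tested genes. These 3, Uqcrc1, Uqcrc2 and Atp5g2, were not called. In bulk RNA, fewer cells of a type and less RNA per cell cannot be told apart, for these genes or any other.

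The complexes had similar shares of lower calls. Complex III had 3 of 8 tested genes called lower (37.5%, median log2 fold change -0.09), complex IV 5 of 14 (35.7%, median -0.13) and complex V 5 of 17 (29.4%, median -0.14). Complex I, whose 36 tested genes with symbols beginning with Nduf encode subunits that take electrons from NADH, had a median of -0.06. Of these genes 10 were called lower (27.8%) and 1 higher (2.78%), against 19.8% and 19.6% of all tested genes. Summed over its genes, complex IV was at 1091, 1066 and 1093 CPM with carnosine and at 1202, 1193 and 1206 CPM with saline. Complex V summed to 3451, 3561 and 3457 CPM with carnosine and to 3703, 3655 and 3714 CPM with saline. In both sums every carnosine library lay below every saline library. As a share of all counts, without TMM scaling, this held for complex IV but not for complex V. Complex V took 0.3516%, 0.3626% and 0.3516% of counts with carnosine and 0.3622%, 0.3584% and 0.3629% with saline, which overlapped. The complex III sum, at 855, 888 and 851 CPM with carnosine and 894, 882 and 894 CPM with saline, overlapped between the groups.

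**Figure D1:**
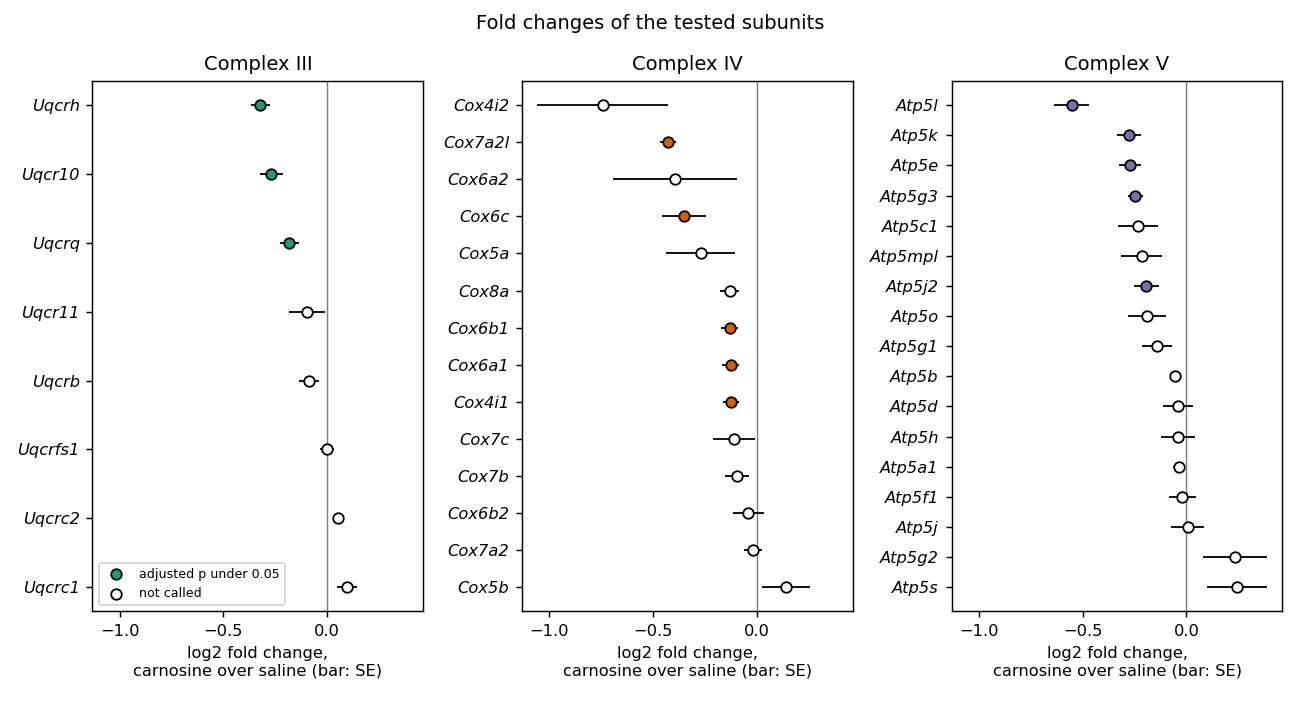
The x axis of each panel is the log2 fold change, carnosine over saline, of the tested subunit genes of 1 complex, with a bar of 1 standard error on each side. Filled points are the 13 genes called lower (edgeR adjusted p under 0.05), open points the others. All filled points lie left of 0, and Uqcrc1, Uqcrc2, Cox5b, Atp5j, Atp5g2 and Atp5s are the 6 points to its right.

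In complex III the called genes were all small subunits. Uqcrh, the acidic hinge protein between cytochrome c1 and cytochrome c, lies on chromosome 4 (chr4:116066965-116075071, minus strand, GRCm38). It was at 103, 100.2 and 93.1 CPM in the carnosine libraries, against 121, 123 and 126 CPM in the saline libraries. Every carnosine library lay below every saline library, and the gap between the groups was wider than the spread within either. Uqcrh fell by 20.0%, with a log2 fold change of -0.32 ± 0.045 (SE; edgeR Benjamini-Hochberg adjusted p = 0.0013). Uqcr10 (chr11:4701973-4704342, minus strand) encodes one of the smallest subunits of the complex. It was at 42.1, 38.5 and 41.3 CPM with carnosine, against 46.9, 50.4 and 49.5 CPM with saline. The groups were again apart, and Uqcr10 fell with a log2 fold change of -0.27 ± 0.057 (SE; edgeR adjusted p = 0.0086). Uqcrq (chr11:53427922-53430831, minus strand), a small subunit near the ubiquinone site, was at 61.3, 66.2 and 64.8 CPM with carnosine, against 74.6, 71.1 and 72.6 CPM with saline. Here too no carnosine library reached the lowest saline library. Its log2 fold change was -0.18 ± 0.047 (SE; edgeR adjusted p = 0.019), and the adjusted p was 0.059 without carnosine replicate 1 and 0.061 without saline replicate 1.

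The core proteins of complex III, which face the matrix and carry no electrons, had the opposite sign and were not called. Uqcrc1 was at 227, 258 and 232 CPM with carnosine and at 223, 223 and 224 CPM with saline, a log2 fold change of 0.10 ± 0.048 (SE; edgeR adjusted p = 0.16). Its carnosine libraries all lay above the saline libraries, and 1 of them, replicate 2, stood well above the other two. Uqcrc2 was at 224, 227 and 223 CPM with carnosine and at 216, 217 and 217 CPM with saline, with a log2 fold change of 0.05 ± 0.023 (SE; edgeR adjusted p = 0.11). Limma-trend on log2(FPKM + 1) called Uqcrc2 higher (adjusted p = 0.0098), and edgeR with a correction for GC content and length called Uqcrc1 higher (adjusted p = 0.035). Uqcrfs1, the Rieske iron-sulfur protein that takes electrons from ubiquinol, was at 91.2, 91.0 and 91.9 CPM with carnosine and at 93.9, 91.3 and 88.9 CPM with saline. Its groups overlapped fully, with a log2 fold change of -0.00098 ± 0.035 (SE) whose sign turned under upper quartile scaling (0.0030). The small subunits Uqcrb, which binds next to cytochrome b, and Uqcr11 had log2 fold changes of -0.09 and -0.10. Neither was called, although Uqcr11 was without saline replicate 2 (edgeR adjusted p = 0.045) and Uqcrb with the GC content and length correction (adjusted p = 0.023).

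In complex IV the lower genes were Cox7a2l, Cox6c, Cox6b1, Cox6a1 and Cox4i1. Cox7a2l (chr17:83501919-83514333, minus strand) belongs to the Cox7a family but is known mainly as a factor that joins complexes III and IV into supercomplexes. It was at 126, 118 and 118 CPM in the carnosine libraries, against 158, 166 and 163 CPM in the saline libraries. That gap was wide beside a spread of a few CPM within each group. Cox7a2l fell by 25.7%, with a log2 fold change of -0.43 ± 0.037 (SE; edgeR Benjamini-Hochberg adjusted p = 0.00014), the smallest adjusted p of the 39 genes. Gm6969, a near-identical copy on chromosome 12 that also had counts, fell by the same amount (log2 fold change -0.43 ± 0.10, SE; edgeR adjusted p = 0.014). Cox6c (chr15:35925886-35938246, minus strand), a small membrane subunit, was at 50.6, 50.5 and 48.9 CPM with carnosine, against 57.1, 75.4 and 58.8 CPM with saline. One saline library, replicate 2, was far above the other two. Its log2 fold change was -0.35 ± 0.11 (SE; edgeR adjusted p = 0.034), and the adjusted p was 0.078, 0.078 and 0.094 without carnosine replicate 1, 2 and 3. Without saline replicate 2 the log2 fold change was -0.21 (edgeR adjusted p = 0.022), and over all left-out libraries it ran from -0.43 to -0.21.

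The other 3 lower genes of complex IV fell by 8.25% to 8.69%. Cox4i1 (chr8:120668222-120674207, plus strand) encodes a ubiquitous form of the subunit through which ATP is thought to regulate the enzyme. It was at 168, 154 and 167 CPM with carnosine, against 176, 177 and 181 CPM with saline, a log2 fold change of -0.12 ± 0.039 (SE; edgeR adjusted p = 0.038). Cox6b1 (chr7:30616861-30626151, minus strand), which lies between the monomers of the complex IV dimer, was at 117, 117 and 115 CPM with carnosine, against 133, 121 and 129 CPM with saline. Its log2 fold change was -0.13 ± 0.040 (SE; edgeR adjusted p = 0.037). Cox6a1 (chr5:115345642-115348981, minus strand), a small subunit that also touches the dimer contact, was at 124, 124 and 133 CPM with carnosine, against 141, 142 and 134 CPM with saline. The highest carnosine library of Cox6a1 almost reached the lowest saline library, and its log2 fold change was -0.13 ± 0.040 (SE; edgeR adjusted p = 0.042). These 3 calls were lost when some single libraries were left out. Cox4i1 lost its call without carnosine replicate 2 or 3 or any 1 saline replicate (edgeR adjusted p 0.056 to 0.099). Cox6b1 lost it without any 1 carnosine replicate or saline replicate 1 or 3 (0.077 to 0.11), and Cox6a1 without replicate 1 or 2 of either group (0.117 to 0.120). Exons of 12 members overlap a gene on the opposite strand, among them Cox6c with Vps13b, Cox4i1 with Emc8 and, in complex V, Atp5l with Gm30934. The libraries were stranded, per the labels' protocols, but the sources used here do not say whether counting used the strand, so reads of overlapping genes may be mixed.

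Cox8a, which encodes a very small membrane subunit, lay just outside the threshold. It was at 109, 102 and 104 CPM with carnosine and at 110.3, 121 and 115 CPM with saline, with a log2 fold change of -0.13 ± 0.044 (SE; edgeR adjusted p = 0.051). Without saline replicate 1 the adjusted p was 0.041, under a minimum of 5 CPM in 3 libraries 0.038, and with mitochondrially encoded genes left out of the library sizes 0.0498. Cox7b was at 124, 119 and 113 CPM with carnosine and at 135, 118 and 128 CPM with saline, which overlapped (log2 fold change -0.10 ± 0.058, SE). Cox5a and Cox5b encode subunits on the matrix side. Cox5a, at 55.9, 58.4 and 76.3 CPM with carnosine and 60.1, 83.0 and 87.0 CPM with saline, had a coefficient of variation of 17.5% with carnosine and 19.0% with saline and was not called. Cox5b was at 122, 123 and 123 CPM with carnosine and at 128, 89.9 and 115 CPM with saline. Its log2 fold change of 0.14 ± 0.12 (SE) came with 1 low saline library, replicate 2.

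In the ATP synthase the 5 lower genes encode parts of the membrane sector, with the exception of Atp5e. Atp5l, Atp5k and Atp5j2 encode subunits g, e and f, which sit beside the c ring, and subunits e and g are known to help the enzyme form dimers in the cristae. Atp5l (chr9:44912557-44920742, minus strand) was at 16.5, 13.9 and 14.7 CPM in the carnosine libraries, against 22.5, 20.97 and 22.8 CPM in the saline libraries. Atp5l fell by 31.9%, with a log2 fold change of -0.55 ± 0.084 (SE; edgeR Benjamini-Hochberg adjusted p = 0.0020). This is the value of the gene without its near-identical copies, which held most of the joint count (83.6% with carnosine and 79.5% with saline), and with them the log2 fold change was -0.23. Atp5k (chr5:108433244-108434448, minus strand) was at 30.1, 29.6 and 29.7 CPM with carnosine, against 34.1, 37.9 and 36.1 CPM with saline. The carnosine libraries of Atp5k differed by under 1 CPM, and its log2 fold change was -0.27 ± 0.058 (SE; edgeR adjusted p = 0.0085). Atp5j2 (chr5:145183698-145192062, minus strand) was at 56.7, 52.8 and 51.9 CPM with carnosine, against 62.9, 57.4 and 64.3 CPM with saline. Its groups were only just apart, with a log2 fold change of -0.19 ± 0.061 (SE; edgeR adjusted p = 0.041). The adjusted p of Atp5j2 was 0.11 to 0.12 without carnosine replicate 2 or 3 or saline replicate 1 or 3.

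Atp5g3 (chr2:73908447-73911326, minus strand) encodes subunit c, the protein that makes up the rotating ring. It was at 113, 109 and 110.4 CPM with carnosine, against 127, 130.4 and 137 CPM with saline. The groups were well apart, and Atp5g3 fell with a log2 fold change of -0.25 ± 0.036 (SE; edgeR Benjamini-Hochberg adjusted p = 0.0017). Atp5e (chr2:174461072-174464105, minus strand) encodes the epsilon subunit at the foot of the central stalk, which turns with the ring. It was at 42.6, 46.4 and 42.5 CPM with carnosine, against 52.5, 54.3 and 52.0 CPM with saline, and its log2 fold change was -0.27 ± 0.054 (SE; edgeR adjusted p = 0.0066). Of the other stalk subunits, Atp5c1 (gamma) was at 181, 217 and 239 CPM with carnosine and at 233, 263 and 253 CPM with saline. The carnosine libraries of Atp5c1 spread widely and 1 overlapped the saline libraries. Its log2 fold change was -0.23 ± 0.097 (SE; edgeR adjusted p = 0.096), and without carnosine replicate 3 it was called (adjusted p = 0.031).

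The catalytic subunits of complex V had the highest levels per kilobase of all members and were not called. Atp5b, the beta subunit that carries the catalytic sites, was at 1362, 1403 and 1381 CPM with carnosine and at 1438, 1427 and 1449 CPM with saline. Its groups did not overlap, but the difference was small, a log2 fold change of -0.06 ± 0.020 (SE; edgeR adjusted p = 0.056). It was called lower with no filter, under a minimum of 5 CPM in 3 libraries, by limma-voom and with the GC content and length correction (adjusted p = 0.040, 0.031, 0.027 and 0.019). Atp5a1, the alpha subunit, was at 975, 1004 and 967 CPM with carnosine and at 1039, 997 and 983 CPM with saline, which overlapped (log2 fold change -0.04 ± 0.028, SE; positive, 0.02, with limma-trend on FPKM). Per kilobase of mRNA, a scale that allows genes to be compared, the level of Atp5b was 721 CPM with carnosine and 751 CPM with saline. Atp5a1 followed at 397 and 407 CPM per kilobase. The highest levels on that scale were 223 and 243 CPM per kilobase in complex IV (Cox6a1) and 181 and 226 CPM per kilobase in complex III (Uqcrh). The peripheral stalk genes Atp5f1, Atp5h and Atp5j had log2 fold changes of -0.02, -0.04 and 0.01, each smaller than its standard error. Atp5o, which encodes the stalk protein OSCP, had a log2 fold change of -0.19 ± 0.090 (SE) and was called only without saline replicate 1 (edgeR adjusted p = 0.019). Atp5s, whose protein is not a fixed part of the enzyme, had the highest log2 fold change of the 39 genes, 0.24 ± 0.14 (SE), and was not called. Atp5d, the delta subunit of the central stalk, was at 128, 142 and 118 CPM with carnosine and at 140.5, 125 and 135 CPM with saline, which overlapped (log2 fold change -0.04 ± 0.073, SE; positive, 0.06, with the GC content and length correction). Atp5mpl, a small membrane subunit, was at 34.6, 31.7 and 28.1 CPM with carnosine and at 38.5, 32.7 and 38.6 CPM with saline. Its groups overlapped as well, with a log2 fold change of -0.22 ± 0.098 (SE), and it was called lower with the GC content and length correction (edgeR adjusted p = 0.025).

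**Figure D2:**
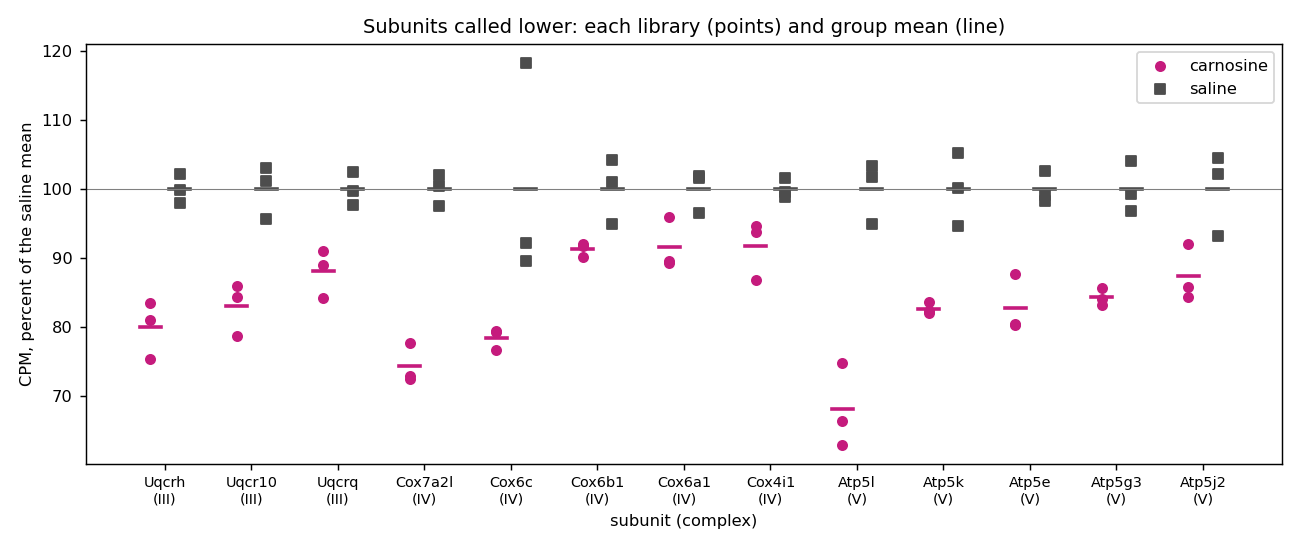
The y axis is the CPM of each library as a percent of the saline mean, for the 13 subunit genes called lower, with the complex in brackets under each name. Circles are the 3 carnosine libraries, squares the 3 saline libraries, and lines the group means. For each of the 13 genes the carnosine circles lie below the saline squares, widely for Atp5l and Cox7a2l and narrowly for Cox6a1.

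Many subunit genes have processed copies elsewhere in the genome whose sequence matches their coding sequence, and the count table lists the copies as genes of their own. A copy was counted as near-identical when at least 90% of the bases matched over at least 80% of the coding sequence. Of the 43 members, 20 had at least 1 such copy, 55 in all. More than 25% of the joint count lay on copies for 7 members and more than 50% for 5, in both groups. These were Atp5g2 (97.9% with carnosine and 98.4% with saline), Atp5l (83.6% and 79.5%), Atp5g1 (75.4% and 74.4%), Cox7c (72.6% and 73.2%) and Atp5h (62.5% and 65.7%). The sequences below are the first 60 coding bases of Atp5l on chromosome 9 and of its copy Gm10221 on chromosome 5 (chr5:24581554-24581862, GRCm38), then of Atp5g2 on chromosome 15 and of its copy Gm10175 on chromosome 7 (chr7:23946646-23947290), both from the GENCODE M21 transcripts. They are shown because reads from such stretches cannot be assigned to 1 gene by sequence.
Atp5l: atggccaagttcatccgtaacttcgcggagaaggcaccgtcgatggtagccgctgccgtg
Gm10221: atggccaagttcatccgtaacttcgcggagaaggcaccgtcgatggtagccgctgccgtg
Atp5g2: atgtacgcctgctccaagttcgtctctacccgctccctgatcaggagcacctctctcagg
Gm10175: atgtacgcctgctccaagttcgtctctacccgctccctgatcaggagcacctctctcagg
The whole coding sequences are identical too, 309 bases for Atp5l and 438 for Atp5g2. For Atp5g1 and its copy Gm10039, both on chromosome 11 (copy at chr11:100361716-100362126), 1 base differs in 408. The stretch of coding bases 326 to 385 ends at that base, in capitals.
Atp5g1: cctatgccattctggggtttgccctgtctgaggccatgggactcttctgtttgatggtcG
Gm10039: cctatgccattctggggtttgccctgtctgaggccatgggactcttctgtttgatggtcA
The subunit c that all Atp5g genes encode is made from these closely related transcripts. The sources used here do not say how reads that fit several genes were counted.

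Because of these copies, members were also summed with their copies, an alternative chosen after seeing the data. Atp5l with its copies was at 91.96, 92.3 and 90.7 CPM in the carnosine libraries, against 109, 109 and 105 CPM in the saline libraries. The sum was lower by less than Atp5l alone, with a log2 fold change of -0.23 (edgeR adjusted p = 0.0013). The copy Gm10221 by itself had a log2 fold change of -0.16 ± 0.048 (SE; edgeR adjusted p = 0.037). Atp5g2 turned from a positive to a negative value. Alone it was at 3.67, 2.81 and 2.93 CPM with carnosine and at 2.67, 2.73 and 2.60 CPM with saline, a log2 fold change of 0.24 ± 0.15 (SE; edgeR adjusted p = 0.31). With its copies it was at 143, 152 and 152 CPM with carnosine, against 171, 173 and 164 CPM with saline, and was called lower (log2 fold change -0.19; edgeR adjusted p = 0.0065). Atp5h, which encodes subunit d of the peripheral stalk, and Cox7c were also called lower as sums, with log2 fold changes of -0.17 and -0.14 (edgeR adjusted p = 0.0061 and 0.027). In all, 16 of the 39 summed members were called lower and 0 higher, in place of 13 and 0. Cox5b and its copy Gm11273, which the table lists as protein coding and which held 30.0% of the joint count with carnosine and 35.3% with saline, had opposite signs. Gm11273 fell with a log2 fold change of -0.21 ± 0.051 (SE; edgeR adjusted p = 0.016).

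**Figure D3:**
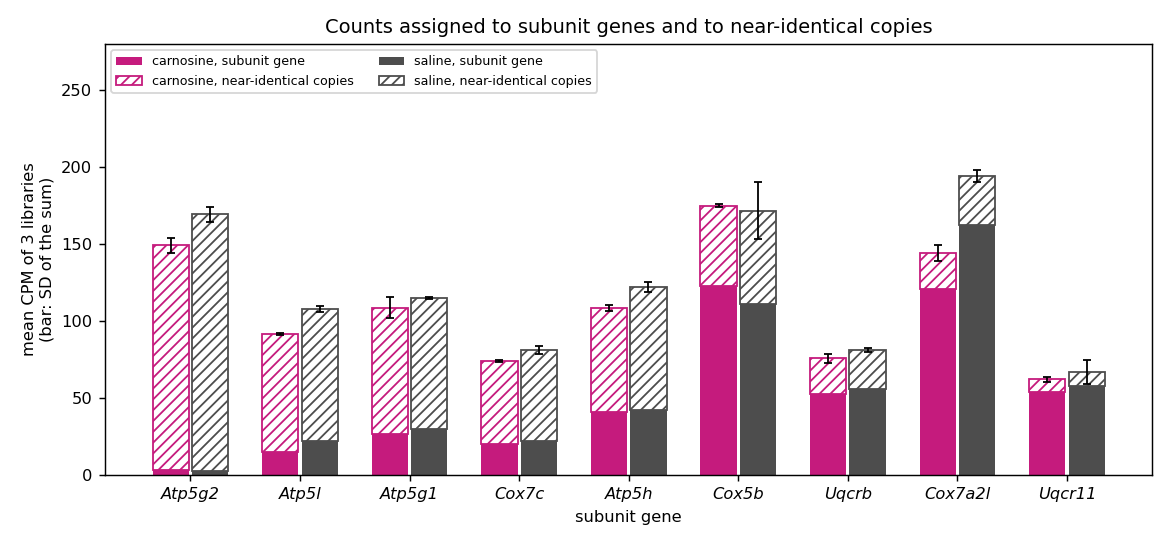
The y axis is the mean CPM of 3 libraries for the subunit genes with over 10% of the joint count on near-identical copies in both groups, with carnosine bars left of saline bars. The filled part is the subunit gene, the hatched part its copies, and the error bar the SD of the sum. Copies make up nearly all of the Atp5g2 bars and most of the Atp5l, Atp5g1, Cox7c and Atp5h bars.

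Several subunits have paralogs that are known for particular tissues. Apart from Cox6b2, the tissue forms were at a few CPM or less, and none was called. Cox4i2, a form known from lung, was at 1.29, 1.15 and 0.618 CPM with carnosine and at 1.88, 2.01 and 1.22 CPM with saline. Its groups overlapped, with a log2 fold change of -0.74 ± 0.32 (SE; edgeR adjusted p = 0.10). Per kilobase of mRNA, Cox4i2 was at 1.41 CPM with carnosine and 2.34 CPM with saline, and Cox4i1 at 219 and 239 CPM. Cox6a2, the heart and skeletal muscle form, was at 2.09, 2.52 and 2.32 CPM with carnosine and at 3.82, 1.75 and 3.57 CPM with saline. Its saline libraries spread more widely than the groups differed, and it was called lower only without saline replicate 2 (edgeR adjusted p = 0.024). Cox6b2, a form known from testis, was higher than the other tissue forms, at 17.9, 19.0 and 16.9 CPM with carnosine and 19.5, 17.8 and 18.2 CPM with saline. It was not called (log2 fold change -0.04 ± 0.074, SE). Cox7a2, the widespread Cox7a form, was at 53.1, 54.9 and 53.4 CPM with carnosine and at 55.7, 54.6 and 53.0 CPM with saline. In contrast with Cox7a2l its groups overlapped (log2 fold change -0.02 ± 0.044, SE; sign positive with limma-trend on FPKM, 0.04). Cox7a1, the muscle form, was at 0.360, 0.577 and 0.695 CPM with carnosine and at 0.667, 0.389 and 0.244 CPM with saline, too low to test. Cox7b2, Cox8b and Cox8c had 0 counts in all libraries, which allows up to 0.0737 CPM over the carnosine group and 0.0679 CPM over the saline group (3 counts, counting error only).

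Counted without near-identical copies, Atp5g3 was the highest of the genes for subunit c and fell (values above). Summed with its copies, Atp5g2 was higher, at a mean of 149 CPM with carnosine and 169 CPM with saline. Atp5g3 was at 111 and 131 CPM, and Atp5g1 summed with its copies at 109 and 115 CPM. These levels are not scaled by mRNA length. Alone, Atp5g1 was at 25.7, 25.2 and 29.2 CPM with carnosine and at 28.6, 30.3 and 29.4 CPM with saline. Its log2 fold change was -0.14 ± 0.073 (SE; edgeR adjusted p = 0.16), and without carnosine replicate 3 it was called lower (adjusted p = 0.046). Atp5g1, Atp5g2 and Atp5g3 encode the same mature protein and differ in their import sequences.

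**Figure D4:**
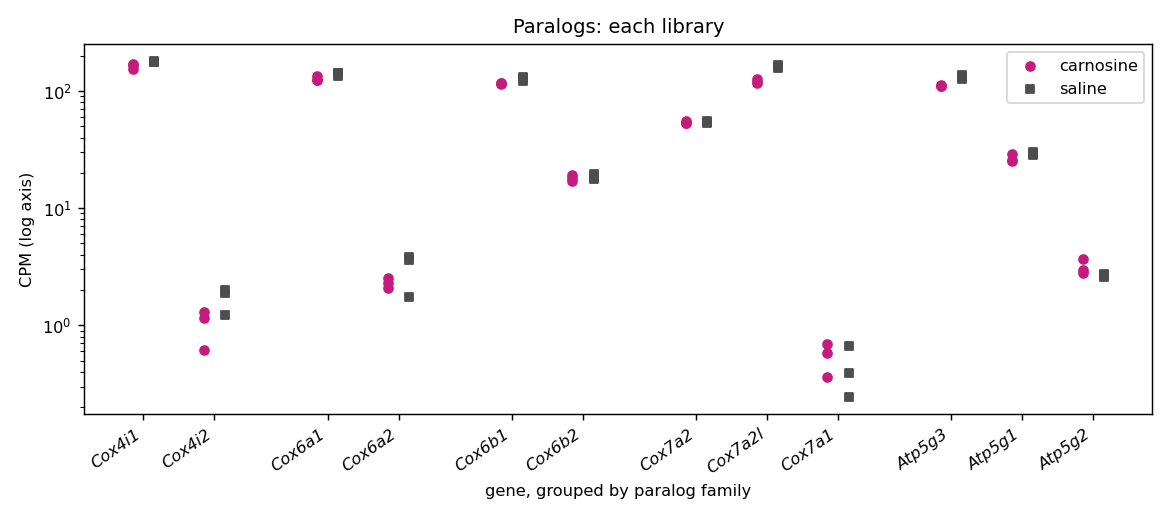
The y axis is CPM on a log axis and the x axis groups genes by paralog family. Circles (left) are the 3 carnosine libraries and squares (right) the 3 saline libraries of each gene. Cox4i1 and Cox6a1 lie far above Cox4i2 and Cox6a2, Cox7a1 lies under 1 CPM, and only Cox4i1, Cox6a1, Cox6b1, Cox7a2l and Atp5g3 of the genes shown were called lower.

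The subunits encoded by mitochondrial DNA, which include the catalytic cores of complexes III and IV and part of the ATP synthase membrane sector, all fell. All 6 were called lower (100%), against 19.8% of all tested genes called lower and 19.6% called higher. The 6 genes summed to 31409, 31278 and 31310 CPM with carnosine and to 35373, 34912 and 35338 CPM with saline. They took 3.18% to 3.20% of all counts in the carnosine libraries and 3.42% to 3.46% in the saline libraries. The groups were clearly apart in both measures. mt-Atp8 was at 1621 ± 7.505 CPM with carnosine and 2091 ± 33.5 CPM with saline (SD, n = 3 each), which gave -0.37 ± 0.020 as log2 fold change (SE; edgeR adjusted p = 1.3e-05). mt-Cytb, the cytochrome b of complex III, was at 4174 ± 51.02 CPM with carnosine and 5069 ± 7.96 CPM with saline (SD, n = 3 each), with -0.28 ± 0.018 as log2 fold change (SE; edgeR adjusted p = 3.1e-05). The core subunits of complex IV differed in size of change, with log2 fold changes of -0.09 for mt-Co1, -0.20 for mt-Co2 and -0.18 for mt-Co3, and mt-Atp6 had -0.20. Libraries were selected for poly-A RNA, and mitochondrial transcripts carry only short poly-A tails.

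Subunits of the same complexes whose symbols lie outside the name rule showed both signs. Cyc1, the cytochrome c1 of complex III, was at 132 ± 0.632 CPM with carnosine and 126 ± 0.732 CPM with saline (SD, n = 3 each), and with a log2 fold change of 0.07 ± 0.026 (SE) just missed the threshold (edgeR adjusted p = 0.061). Ndufa4 of complex IV and Usmg5 of complex V had log2 fold changes of -0.13 and -0.19 and were not called. Atpif1, the inhibitor that stops the ATP synthase from running in reverse, fell with a log2 fold change of -0.14 ± 0.032 (SE; edgeR adjusted p = 0.013). Cytochrome c itself, Cycs, had -0.10 and was not called. Of the 4 complex II genes, which feed electrons into complex III through ubiquinone, 1 was called lower (25%) and none higher. Of all tested genes 19.8% were called lower and 19.6% higher. The complex II gene called lower was Sdhb (log2 fold change -0.13 ± 0.037, SE, edgeR adjusted p = 0.030).

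Of 29 complex IV assembly genes tested, 5 rose (17.2%) and 1 fell (3.45%), with a median log2 fold change of 0.002. Of all tested genes 19.6% were called higher and 19.8% lower, so the share that rose was near the background. Cox15, an enzyme of haem a synthesis, rose to 73.2 ± 1.70 CPM with carnosine, against 53.8 ± 1.07 CPM with saline (SD, n = 3 each), with 0.44 ± 0.042 as log2 fold change (SE; edgeR adjusted p = 0.00022). Fdxr, the ferredoxin reductase that supplies electrons for that step, rose with a log2 fold change of 0.33 (edgeR adjusted p = 0.0059). Lrpprc, which stabilises mitochondrial mRNAs, rose by 0.20 on the log2 scale, Taco1, a translational activator of mt-Co1, by 0.38, and Coa4, at a low level, by 0.67 (edgeR adjusted p = 0.0066, 0.026 and 0.033). Pet100, a small assembly protein, fell by 0.33 on the log2 scale (edgeR adjusted p = 0.015). Of 6 complex III assembly genes, Uqcc1 rose (log2 fold change 0.45 ± 0.092, SE; edgeR adjusted p = 0.0078) and Uqcc2 fell (-0.26 ± 0.079, SE; adjusted p = 0.035). In yeast and human cells the products of these genes are known to act as partners in the synthesis of cytochrome b. None of the 4 complex V assembly genes was called, with log2 fold changes from -0.11 for Tmem70 to 0.003 for Tmem242.

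The list of respiratory gene regulators joins factors for nuclear respiratory genes with Tfam, Tfb1m, Tfb2m and Polrmt, which act on the mitochondrial genome or its transcripts. Of its 13 tested genes, 2 rose and 2 fell, 15.4% in each direction, with a median log2 fold change of 0.08. These shares lay below those of all tested genes, 19.6% higher and 19.8% lower. Yy1, which encodes a zinc finger factor, was at 248 ± 4.22 CPM with carnosine and 301.1 ± 5.48 CPM with saline (SD, n = 3 each), and fell with a log2 fold change of -0.28 ± 0.026 (SE; edgeR adjusted p = 0.00020). Nrip1, a corepressor, fell by the same amount (-0.28 ± 0.033, SE; edgeR adjusted p = 0.00060). Gabpb2, a partner of the ETS factor GABP, rose with a log2 fold change of 0.20 ± 0.039 (SE; edgeR adjusted p = 0.0062), as did Tfb1m, a methyltransferase for mitochondrial ribosomal RNA, with 0.30 ± 0.068 (SE; edgeR adjusted p = 0.013). The DNA-binding factors Nrf1 and Gabpa differed little, at 40.4 ± 0.829 and 133.9 ± 9.52 CPM with carnosine and at 39.5 ± 1.05 and 136.5 ± 5.11 CPM with saline (SD, n = 3 each), and did not pass the test. Ppargc1a, the coactivator known from muscle and brown fat, was too low to test.

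Promoters of the members were searched for short cores bound by these factors, in windows from 250 bases before to 50 bases after the RefSeq start site (GRCm38.p6). A window was found for 31 of the 43 members, and all 27025 windows served for comparison. The NRF1 core GCGCATGCG, on either strand, was present in 6 of 31 windows (19.4%), against 1.81% of all windows. The GABP/ETS core CCGGAAG was present in 9 of 31 (29%), against 9.12%, and the YY1 core AAGATGGCG in 1 of 31 (3.23%), against 1.49%. Of members called lower, 6 of 10 windows held the GABP/ETS core, 3 of 10 the NRF1 core and 1 of 10 the YY1 core. Of the other tested members, 3 of 18 windows held the GABP/ETS core, 3 of 18 the NRF1 core and 0 of 18 the YY1 core. These differences were not tested. Matches are a description of letters only. The windows of Uqcrh (chr4:116075021-116075320, minus strand) and Atp5k (chr5:108434350-108434649, minus strand) are shown because both genes were called lower in every alternative tried and hold a core close to the start site. Capitals mark the cores, here on the reverse strand as CTTCCGG for GABP/ETS.
Uqcrh: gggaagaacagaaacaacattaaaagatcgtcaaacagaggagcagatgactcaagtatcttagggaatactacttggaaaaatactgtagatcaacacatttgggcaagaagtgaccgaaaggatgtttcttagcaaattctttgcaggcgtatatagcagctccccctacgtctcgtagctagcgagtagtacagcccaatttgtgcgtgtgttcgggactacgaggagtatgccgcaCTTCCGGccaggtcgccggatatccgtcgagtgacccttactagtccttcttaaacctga
Atp5k: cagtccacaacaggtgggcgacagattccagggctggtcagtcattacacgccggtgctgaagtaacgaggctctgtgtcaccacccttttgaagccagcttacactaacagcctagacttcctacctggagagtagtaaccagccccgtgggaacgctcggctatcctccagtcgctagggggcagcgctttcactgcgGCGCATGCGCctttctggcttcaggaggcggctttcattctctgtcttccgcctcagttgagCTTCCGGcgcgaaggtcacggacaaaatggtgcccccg
In Uqcrh the core begins at -10 from the start site. In Atp5k an NRF1 core lies on both strands, at -50 and -49 and overlapping by all but 1 base, and the GABP/ETS core begins at 12.

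The members called lower were short. Their coding lengths ran from 156 to 507 bases, and 8 of the 16 tested members with up to 300 coding bases and 5 of the 15 with more, up to 600, were called lower, against 0 of the 8 longer ones. Shares of the other protein-coding genes differed with length as well. Among those with up to 300 coding bases 22% were called lower and 12% higher, with a median log2 fold change of -0.12. Of those over 1200 bases 20.2% were called lower and 25.3% higher, with a median of 0.03. Over the 39 tested members, which share the same 6 libraries and differ also in base composition, Pearson's r of the log2 fold change with the log2 coding length was 0.33 and Spearman's rho 0.40. With a correction for GC content and mRNA length in edgeR, 14 members were called lower and 1, Uqcrc1, higher. Coding length itself was not corrected for, and its part in these differences was not tested.

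**Figure D5:**
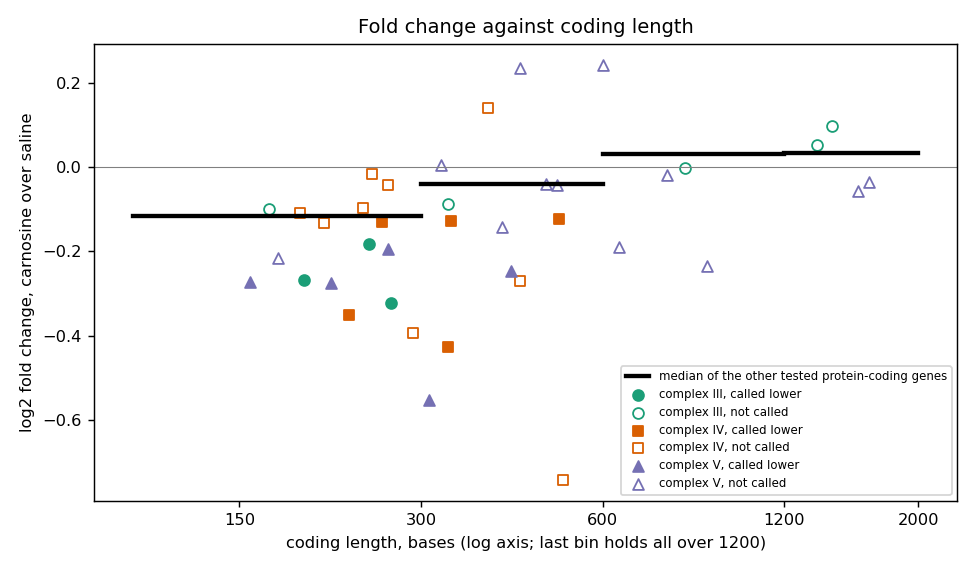
The x axis is the coding length in bases on a log axis and the y axis the log2 fold change, carnosine over saline, of the 39 tested subunit genes. Filled symbols were called lower, and marker shapes give the complex. Black lines are the medians of the other tested protein-coding genes in 4 length classes, from -0.12 in the shortest to 0.03 in the longest. The filled symbols all lie at or under 507 bases.

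Marker genes of other blood cells differed between the same libraries, in which 19.6% of all tested genes were called higher and 19.8% lower. All 5 tested megakaryocyte markers fell, and the list summed to 139 to 146 CPM with carnosine and 342 to 368 CPM with saline, with Gp6 at 0 throughout and Vwf shared with the LT-HSC list. Of 10 neutrophil and myeloid progenitor markers 6 rose and 3 fell, and the sum was 7480.5 to 7726 CPM with carnosine and 3667 to 3693 CPM with saline. Most of that sum was Mpo, at a mean of 5404 CPM with carnosine and 2757 CPM with saline. The 3 that fell were Ltf, Ngp and S100a9. Erythroid markers, 5 of 9 higher and 1 lower, summed to 1621 to 1674 CPM with carnosine and 1398 to 1441 CPM with saline. Genes of the LT-HSC list, 1 of 14 tested higher and 8 lower, summed to 1084 to 1115 CPM with carnosine and 1283 to 1328 CPM with saline. This list includes Flt3 and Cd34, although the gate excluded their proteins, and both made up a large part of the sum (values above). Flt3 was among the genes called lower and Cd34 was not. The gene called higher was Kit, a marker the gate kept. The sum is therefore no measure of LT-HSC identity. T and NK cell markers (5 of 6 tested higher, 1 lower) summed to 125 to 136 CPM with carnosine and 88.1 to 90.7 CPM with saline. Most of that sum was Nkg7, at a mean of 114 CPM with carnosine and 81.5 CPM with saline. B and plasma cell markers summed to 2800.0 to 3076 CPM with carnosine and 2294 to 2331 CPM with saline. The largest part of that sum was Igkc, at a mean of 2002 CPM with carnosine and 1126 CPM with saline. Jchain was at 584, 576 and 281 CPM with carnosine and at a mean of 322 CPM with saline. Ighm went the other way, at a mean of 281 CPM with carnosine and 692 CPM with saline. Of the 12 genes of this list 3 were higher (25%) and 2 lower (16.7%), near the shares of all tested genes. Macrophage markers (2 of 4 tested higher, 1 lower) summed to 81.0 to 84.6 CPM with carnosine and 108 to 119 CPM with saline. The lower sum came from Csf1r alone, at 47.8 ± 1.64 CPM with carnosine and 84.3 ± 4.36 CPM with saline (SD, n = 3 each). Adgre1, Vcam1, Cd68, C1qa and C1qb had higher means with carnosine. The part of all these marker genes in the differences of the subunit genes was not tested.

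Of the 13 members called lower, 7 were called lower in all 20 alternative settings and left-out libraries, namely Uqcrh, Uqcr10, Cox7a2l, Atp5l, Atp5k, Atp5e and Atp5g3. The other 6, Uqcrq, Cox6c, Cox6b1, Cox6a1, Cox4i1 and Atp5j2, kept a negative log2 fold change in all 20 but lost their call in at least 1. Without carnosine replicate 2, 8 members were called lower.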

How the data were processed

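RNA of the sorted cells was made into stranded poly-A libraries, per the labels' protocols, 3 from carnosine-treated and 3 from saline-treated irradiated mice. The submitters' processing notes name the build GRCm38 and the tools HISAT2, StringTie, CASAVA 1.8 and edgeR. The sources used here do not give the role of each, the annotation, the use of strand or the handling of reads that fit several genes. The deposited table holds raw whole-number counts and FPKM values made by the authors, per the file headers. The gene lengths implied by the deposited FPKM values have a median of 6085 bases over genes averaging 100 counts or more. For 37 members the implied length of the gene exceeds its own main GENCODE M21 mRNA, so levels are compared between genes as CPM per kilobase of that mRNA.

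The test of the counts used R 4.3.3 and edgeR 4.0.16: filterByExpr (15533 genes, 99.8% of counts), TMM, quasi-likelihood F-test over all genes with no covariate, Benjamini-Hochberg adjustment at 0.05. The standard error is the log2 fold change divided by the square root of F, and the biological coefficient of variation was 0.0999. The procedure was also run on simulated data to check the code. That run does not show how reliable the calls of small changes are here. Alternatives were other scalings, filters, DESeq2 1.42.0, limma 3.58.1 (voom, and trend on log2(FPKM + 1 or 0.1) for genes reaching 1 FPKM in 3 libraries), the replicate number as a block, a GC content and length correction (splines of 5 degrees of freedom), each library left out, and members summed with pseudogenes. The GC content and length correction used the length of the main mRNA, not the coding length. Copies were found with blastn 2.17.0 against GENCODE M21 transcripts. Promoter windows are from RefSeq, the first listed for each gene.

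The members and lists were chosen with earlier results of these data known. Named genes are the called members, the highest and lowest of each complex, the paralog families and up to 4 genes of each list by p-value; copies and other members or list genes were named after their values were seen. Intervals and limits of 0 counts cover counting error only.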

Additional observations from a re-analysis of the deposited data

How the results depend on the processing

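The count of 13 members called lower and 0 called higher was 8 and 0 with the DESeq2 Wald test, and 8 and 1 with limma-trend on log2(FPKM + 1) and on log2(FPKM + 0.1), where Uqcrc2 was the higher one. With the GC content and length correction, and with the replicate block together with it, 1 member (Uqcrc1) was called higher and 14 and 13 lower. Leaving out 1 library gave 8 to 13 lower, the 8 without carnosine replicate 2, and 0 higher. The replicate numbers do not pair the libraries (correlation of deviations 0.00791, 0.0268 and 0.021), and the replicate block gave 9 lower, 0 higher and 5231 called genes in all, in place of 6115. With it Uqcrq, Cox4i1, Cox6a1, Cox6b1 and Atp5j2 were not called (edgeR adjusted p 0.055 to 0.099), and Atp5c1 was called lower (log2 fold change -0.24, adjusted p = 0.030). With limma-trend on log2(FPKM + 1) the median log2 fold change over all tested genes was 0.051, in place of -0.00005 with edgeR. Near 0, some log2 fold changes of members that were not called changed sign, and the cause was not tested. With limma-trend on log2(FPKM + 1) and (FPKM + 0.1) these were Uqcrfs1 (0.056, 0.057), Cox6b2 (0.0126, 0.0143), Cox7a2 (0.0394, 0.0403), Atp5a1 (0.0218, 0.0219), Atp5d (0.0129, 0.0131), Atp5f1 (0.0383, 0.0392) and Atp5h (0.0184, 0.0196). Uqcrfs1 was 0.0030 with upper quartile scaling. Atp5d was 0.0550 with the GC and length correction and 0.0526 with the replicate block added. Atp5j was -0.0016 with no filter and -0.0021 with at least 5 CPM in 3 libraries. Atp5g2 was -0.19 when summed with its near-identical copies. Over the left-out libraries the log2 fold change ran from -0.0215 to 0.0197 for Uqcrfs1, -0.0370 to 0.00035 for Cox7a2, -0.113 to 0.0209 for Atp5d, -0.0868 to 0.0213 for Atp5f1, -0.120 to 0.0237 for Atp5h and -0.0608 to 0.0643 for Atp5j. Levels of members with near-identical copies hold only for the counts as deposited, since the handling of shared reads is unknown. With 3 libraries a group, a missed threshold does not show that a gene did not differ.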
